A study of Mus musculus with 6 samples.

Results

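The exon junction complex (EJC) and the nonsense-mediated decay (NMD) machinery were followed in mouse embryos at the 4-cell stage through 10 genes, Eif4a3, Magoh, Rbm8a, Casc3, Upf1, Upf2, Upf3a, Upf3b, Smg1 and Smg6. They were taken by symbol from the per-library gene tables, where each symbol matched 1 of 46072 rows, and all 10 passed the filter on low counts. There were 3 libraries of embryos that had received siRNA against Son by injection at the zygote stage, set against 3 libraries labelled control. Son encodes a nuclear speckle protein that acts in pre-mRNA splicing. The labels give no strain, no count of embryos per library, no litter and no description of what the controls received. The spread behind every p-value is that between these libraries, which may be technical. The cDNA was made with Smart-Seq2, a full-length protocol primed with oligo(dT) that does not mark the strand.

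Splicing leaves an EJC on the mRNA just upstream of each exon-exon junction, and translation normally strips it off. When a ribosome terminates with an EJC still bound downstream, UPF proteins are recruited to the terminating ribosome and the transcript is degraded by NMD. The pathway therefore reads the products of splicing, it removes many transcripts with retained introns or poison exons, and loss of several of its factors is lethal in mouse embryos.

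Library totals were 104634855 to 114892490 units after Son siRNA and 107996833 to 118865650 units in controls. Genes above 0 numbered 20996 to 21337 after siRNA and 19102 to 20411 in controls. Mitochondrially encoded genes held 13.2% to 17.5% of units after siRNA and 9.79% to 16.0% in controls. Spearman correlations of counts were 0.904 to 0.908 among siRNA libraries and 0.886 among controls. Between the groups they were 0.879 to 0.893, so controls were no closer to each other than to siRNA libraries. Son had 41, 28.0 and 25.1 CPM in the siRNA libraries, against 249, 322 and 332 CPM in controls, where CPM is the library's count scaled to a common total and by its TMM (trimmed mean of M-values) factor. That left 10.4% of the control level (log2 fold change -3.26, SE 0.272, adjusted p = 0.00991 by edgeR's quasi-likelihood test). Without siRNA library 1, 2 or 3 the edgeR adjusted p for Son was 0.0648, 0.0709 or 0.136. Each of those fits called 0 genes in either direction. Of 6 embryo markers, Dppa4, Tfap2c, Tead4 and Zfp42 were at 12.5 CPM or more in every library. Pou5f1 was at 0.755 to 1.37 CPM after siRNA and 1.88 to 5.75 CPM in controls, and Carm1 at 0 to 1.24 CPM after siRNA and 0.458 to 2.46 CPM in controls. The summed level of the 6 was 681 to 809 CPM after siRNA and 940 to 1086 CPM in controls, most of it Dppa4. That of 9 oocyte and maternal markers was 226 to 324 CPM after siRNA and 110 to 179 CPM in controls. Of these, Oosp1 had 74.3 to 138 CPM after siRNA and 12.1 to 43.8 CPM in controls. Padi6 had 17.7 to 20.6 CPM after siRNA and 17.4 to 33.9 CPM in controls, and Zar1 0.332 to 0.367 CPM after siRNA and 0 to 1.66 CPM in controls. Of 9 cumulus markers, Inha, Foxl2 and Fshr were at 0 in all libraries, and the sum was 20.3 to 28.4 CPM after siRNA and 6.57 to 18.2 CPM in controls, nearly all of it Amhr2. Sperm markers summed to at most 0.905 CPM after siRNA and 1.14 CPM in controls, and Tnp2, Odf1 and Smcp of the 7 were at 0. Blood markers summed to 10.1 to 11.5 CPM after siRNA and 6.50 to 13.8 CPM in controls, with Ptprc, Hbb-bs and Hbb-bt of the 7 at 0. No marker on these lists had an edgeR adjusted p under 0.05. The part these marker levels play in the results was not tested.

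None of the 10 genes passed the test over all genes (edgeR, adjusted p under 0.05), where 0.899% of the 17788 genes tested were lower and 0.0899% were higher. The gene furthest from no change was Upf1, the RNA helicase at the centre of NMD, with 31.1% of its control level after siRNA. Upf1, Upf2 and Upf3a were each lower in the 3 siRNA libraries than in any control, while the EJC core genes and both SMG genes had overlapping groups. Non-overlapping groups with siRNA lower were thus seen for 3 of the 10 genes, against 11.6% of all genes tested, and with siRNA higher for 0 of the 10, against 12.1%. At an unadjusted p under 0.05, 2 of the 10 were lower, against 8.86% of all genes, and 0 were higher, against 5.88%. DESeq2's Wald test called 1 of the 10 lower, Upf1, against 6.25% of the genes with an adjusted p, and 0 higher, against 2.74%. The median log2 fold change was -0.30 over the 10 genes and 0.02 over all genes tested, and 8 of the 10 values were below 0, against 48.7% of all genes, though Magoh and Smg1 turned above 0 with total-count scaling. The median control level was 131 CPM over the 10 genes and 3.02 CPM over all genes tested. The shares over all genes are therefore not those of genes at a like level. In RNA of whole embryos, fewer cells with a transcript and less of it per cell cannot be told apart.

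**Figure D1:**
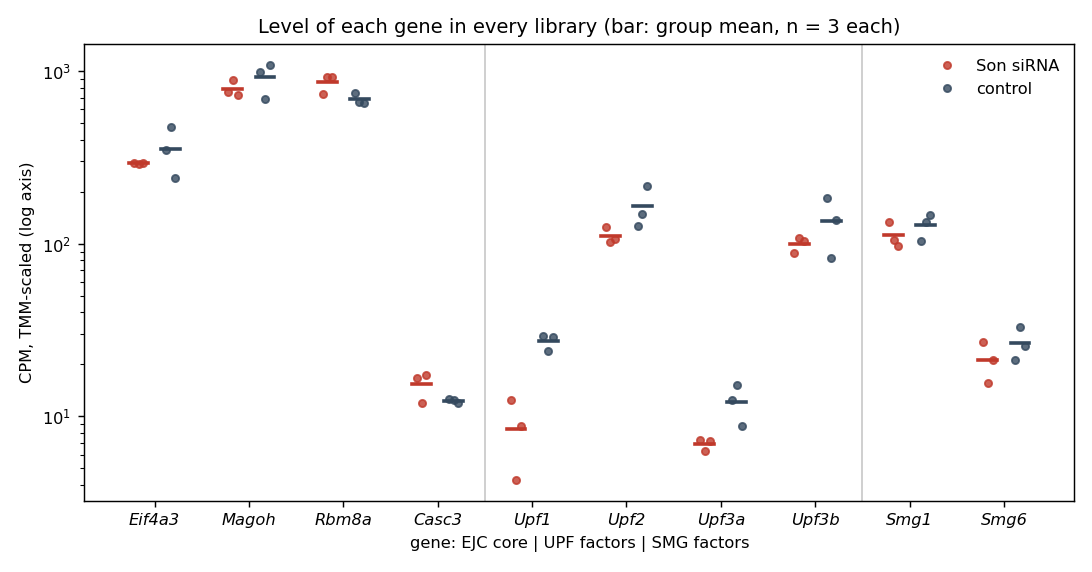
TMM-scaled CPM on a log axis for each gene in every library, with points for the 3 Son siRNA libraries on the left of each pair, the 3 control libraries on the right, and bars for the group means. The groups are apart for Upf1, Upf2 and Upf3a, and they overlap for the other 7 genes.

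Eif4a3, Magoh, Rbm8a and Casc3 make up the EJC core, and all but Casc3 were at 239 CPM or more in every library. Eif4a3 (ENSMUSG00000025580, chromosome 11, 119288363 to 119300089 on GRCm38) encodes the DEAD-box ATPase that clamps onto the RNA. It had 295, 291 and 294 CPM after Son siRNA, against 351, 473 and 239 CPM in controls. The siRNA values lay within 1.01-fold of each other and inside the range of the controls, which spread 1.98-fold. The log2 fold change was -0.27 (SE 0.257, 95% interval -0.86 to 0.31, edgeR adjusted p = 0.70).

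Magoh (ENSMUSG00000028609, chromosome 4, 107879755 to 107887424) and Rbm8a (ENSMUSG00000038374, chromosome 3, 96629933 to 96633791) encode the heterodimer that locks Eif4a3 in its closed state on the RNA. Magoh had 755, 882 and 730 CPM after Son siRNA, against 987, 690 and 1088 CPM in controls. Rbm8a had 734, 924 and 927 CPM after siRNA, against 746, 658 and 657 CPM in controls. Both pairs of groups overlapped, for Magoh because control 2 was the lowest of the 6 libraries and for Rbm8a because siRNA library 1 lay just under control 1. The partners of the heterodimer had fitted changes of opposite sign, with a log2 fold change of -0.22 (SE 0.221, 95% interval -0.72 to 0.28) for Magoh and 0.33 (SE 0.190, 95% interval -0.10 to 0.76) for Rbm8a, although total-count scaling put Magoh above 0 as well (0.09). Neither was past the threshold (edgeR adjusted p = 0.718 for Magoh and 0.485 for Rbm8a), and the difference between the genes was not tested.

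Casc3 (ENSMUSG00000078676, chromosome 11, 98804905 to 98833814) encodes the fourth core protein, also called MLN51 or Barentsz, which stays with the complex in the cytoplasm. It had 16.6, 12 and 17.4 CPM after Son siRNA, against 12.6, 12.5 and 12 CPM in controls. Libraries 1 and 3 of the siRNA group were above the controls and library 2 lay among them. The log2 fold change was 0.31 (SE 0.291, 95% interval -0.34 to 0.97, edgeR adjusted p = 0.694). Reads of neighbours cannot be told apart there, and 11.5% of the exonic bases of Casc3 overlap Msl1 and the antisense gene Gm12359.

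**Figure D2:**
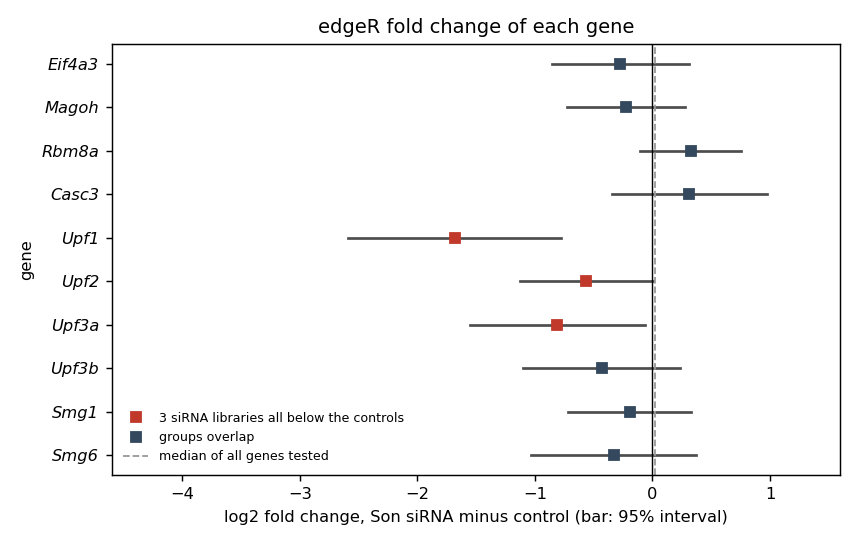
edgeR log2 fold change of each gene, Son siRNA minus control, with bars for the 95% interval, red squares where the 3 siRNA libraries lay below all controls and a dashed line at the median of all genes tested. The intervals of Upf1 and Upf3a lie below 0, that of Upf2 reaches 0.002 and those of the other 7 genes span 0.

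All 4 UPF genes had fold changes below 0, against 48.7% of all genes tested, and 3 of them had non-overlapping groups with siRNA lower, against 11.6%. None of the 4 passed the threshold (edgeR adjusted p = 0.0923 to 0.562). They share the same 6 libraries and come from members chosen with earlier results known, so these counts are not a test. Upf1 (ENSMUSG00000058301, chromosome 8, 70331525 to 70353278) encodes the ATP-dependent helicase whose phosphorylation commits a transcript to decay. It had 12.4, 4.28 and 8.74 CPM after Son siRNA, against 29.1, 23.8 and 28.8 CPM in controls. The highest siRNA library was still below the lowest control, and within the siRNA group library 1 was 2.91-fold above library 2. Means were 8.49 ± 4.09 CPM after siRNA and 27.3 ± 3.0 CPM in controls (SD, n = 3 each). The log2 fold change was -1.68 (SE 0.402, 95% interval -2.59 to -0.77), which missed the threshold with edgeR (adjusted p = 0.0923, unadjusted p = 0.00234) and passed it with DESeq2 (adjusted p = 0.00098). By exact permutation, two-sided, Upf1, Upf2 and Upf3a each had p = 0.1, and 20 assignments of 6 libraries can give no smaller p. Of all genes tested, 12.1% had a fitted log2 fold change below -1, a looser cut than the value of Upf1. The median control level of those tested genes was 3.02 CPM, below that of Upf1, so this share does not give how common such a fall is at its level. Of the exonic bases of Upf1 1.47% overlap the neighbouring genes Cers1 and Gdf1, and 0% of its 100-base stretches occur in another annotated gene.

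Upf2 (ENSMUSG00000043241, chromosome 2, 5951469 to 6056703) encodes the adaptor that binds Upf1 on one side and Upf3 proteins on the other. It had 126, 103 and 106 CPM after Son siRNA, against 127, 149 and 217 CPM in controls. The groups were apart by a narrow margin, between siRNA library 1 and control 1. The log2 fold change was -0.56 (SE 0.250, 95% interval -1.13 to 0.002, edgeR adjusted p = 0.34).

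Upf3a (ENSMUSG00000038398, chromosome 8, 13785615 to 13799193) and Upf3b (ENSMUSG00000036572, chromosome X, 37091678 to 37110322) are paralogs that connect Upf2 to the EJC, of which Upf3b is the more potent activator of decay. Upf3a had 7.27, 6.31 and 7.21 CPM after Son siRNA, against 12.4, 15.2 and 8.85 CPM in controls. Upf3b had 88.5, 107 and 104 CPM after siRNA, against 185, 82.9 and 137 CPM in controls. The Upf3a groups did not overlap (log2 fold change -0.81, SE 0.329, edgeR adjusted p = 0.299), while control 2 put the lowest Upf3b value in the control group (log2 fold change -0.43, SE 0.296, edgeR adjusted p = 0.562).

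The promoters of Upf1, Upf2 and Upf3a are shown because these are the members with lower values in every siRNA library. They come from RefSeq on GRCm38.p6, 250 bases before to 50 after the start site, 5′ to 3′ on the strand of the gene, with matches to the motifs searched in capitals. Upf1 is at chr8:70353230-70353529 on the minus strand, Upf2 at chr2:5951219-5951518 and Upf3a at chr8:13785365-13785664 on the plus strand.
Upf1: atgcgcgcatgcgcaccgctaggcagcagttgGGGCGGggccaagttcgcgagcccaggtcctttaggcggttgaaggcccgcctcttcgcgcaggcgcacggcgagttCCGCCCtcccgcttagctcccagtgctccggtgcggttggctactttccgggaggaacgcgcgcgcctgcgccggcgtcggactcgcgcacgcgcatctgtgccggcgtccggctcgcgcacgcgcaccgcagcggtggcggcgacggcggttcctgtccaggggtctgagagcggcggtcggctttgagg
Upf2: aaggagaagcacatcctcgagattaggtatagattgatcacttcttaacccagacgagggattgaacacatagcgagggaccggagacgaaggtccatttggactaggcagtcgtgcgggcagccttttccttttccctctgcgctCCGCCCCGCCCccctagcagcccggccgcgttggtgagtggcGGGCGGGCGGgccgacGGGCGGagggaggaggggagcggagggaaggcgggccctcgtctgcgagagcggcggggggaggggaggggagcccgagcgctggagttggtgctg
Upf3a: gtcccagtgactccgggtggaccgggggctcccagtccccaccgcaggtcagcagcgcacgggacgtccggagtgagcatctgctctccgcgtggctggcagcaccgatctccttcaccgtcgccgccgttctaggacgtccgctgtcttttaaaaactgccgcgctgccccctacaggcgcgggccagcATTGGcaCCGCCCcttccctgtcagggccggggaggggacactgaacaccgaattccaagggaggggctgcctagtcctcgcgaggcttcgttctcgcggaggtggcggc
The motifs searched on both strands were the GC box GGGCGG, the CCAAT box CCAAT, the ETS core CCGGAAG, the YY1 core ATGGCGG and the TATA box TATAAA. All 3 windows were rich in G and C (72.3% for Upf1, 66.0% for Upf2 and 68.0% for Upf3a), and all 3 held a GC box, as did 35.7% of the 32851 promoters in the table. The Upf2 window held 5 GC box matches, some of which overlap each other, the Upf1 window held 2 and the Upf3a window held 1. A CCAAT box was found for Upf3a and for neither of the other two, against 37.4% of all promoters. The ETS, YY1 and TATA letters were in none of the 3 windows and in 8.86%, 4.05% and 13.6% of all promoters. These matches describe letters and not bound sites. Of the 8 members with a promoter in the table, 7 held a GC box.

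Smg1 and Smg6 act on and after Upf1, and their groups overlapped. Smg1 (ENSMUSG00000030655, chromosome 7, 118131308 to 118243670) encodes the kinase that phosphorylates Upf1. It had 134, 105.05 and 96.6 CPM after Son siRNA, against 103, 133 and 147 CPM in controls, with siRNA library 1 among the upper controls. The log2 fold change was -0.19 (SE 0.233, 95% interval -0.72 to 0.33, edgeR adjusted p = 0.781), and 0.10 with total-count scaling. Smg6 (ENSMUSG00000038290, chromosome 11, 74925823 to 75164448) encodes the endonuclease that cuts the target near the stop codon. It had 26.8, 15.7 and 21.3 CPM after siRNA, against 21.3, 33.1 and 25.7 CPM in controls. The siRNA values straddled the lower controls (log2 fold change -0.33, SE 0.310, 95% interval -1.03 to 0.37, edgeR adjusted p = 0.70).

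Levels per length, as CPM per kilobase of the longest annotated transcript, put Magoh, Rbm8a and Eif4a3 far above the decay factors in both groups. Magoh averaged 1140 ± 118 after Son siRNA and 1332 ± 299 in controls, Rbm8a 313 ± 39.997 after siRNA and 249 ± 18.6 in controls, and Eif4a3 194 ± 1.49 after siRNA and 235 ± 77.6 in controls (SD, n = 3 each). Rbm8a and Eif4a3 in controls differed by less than the SD of Eif4a3. On the same scale Upf3b averaged 39.2 ± 3.96 after siRNA and 52.8 ± 20.04 in controls, Upf2 21.5 ± 2.38 after siRNA and 31.8 ± 9.06 in controls, and Smg1 7.18 ± 1.24 after siRNA and 8.22 ± 1.44 in controls. The lowest levels per length were those of Casc3, Smg6, Upf3a and Upf1. Casc3 averaged 3.87 ± 0.733 after siRNA and 3.11 ± 0.0794 in controls, and Smg6 3.64 ± 0.952 after siRNA and 4.57 ± 1.02 in controls. Upf3a averaged 1.87 ± 0.145 after siRNA and 3.28 ± 0.863 in controls, and Upf1 1.84 ± 0.886 after siRNA and 5.90 ± 0.649 in controls. After siRNA Upf1 was the lowest of these 4, at a level that differed from that of Upf3a by less than the SD of Upf1, and in controls it was the highest. Casc3 and Smg6 after siRNA, and Casc3 and Upf3a in controls, also differed by less than the larger SD. Among the core genes, Casc3 was far below the other 3 in both groups. Length was taken from the annotation, so these levels depend on which isoform the embryo uses.

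Replicates were tighter after Son siRNA than in controls. The median coefficient of variation over the 10 genes was 11.9% after siRNA and 22.4% in controls, and over the 6079 genes at 10 CPM or more it was 15.0% after siRNA and 28.9% in controls. Upf1, Casc3, Rbm8a and Smg6 went the other way. For Upf1 the coefficient was 48.2% after siRNA and 11% in controls, and for Casc3 it was 18.9% after siRNA and 2.55% in controls.

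The ratio of a paralog to its partner is taken within a library. The log2 ratio of Upf3b to Upf3a, each with 0.5 CPM added, was 3.52, 3.98 and 3.77 after Son siRNA, against 3.85, 2.41 and 3.87 in controls. Control 2 stood below the other 5 libraries, and the mean difference was 0.38 (exact two-sided permutation p = 0.7, n = 3 against 3), which became -0.11 without control 2. Per length, Upf3b was 17.6-fold to 24.6-fold above Upf3a after siRNA and 7.90-fold to 22.4-fold in controls. For Magohb, the second mammalian Magoh gene, the log2 ratio to Magoh was -6.41, -5.41 and -6.59 after siRNA, against -5.52, -6.38 and -6.41 in controls, and the mean difference was -0.03 (exact two-sided permutation p = 0.8). Without siRNA library 1 or 3 or control 1 that difference had the other sign. Magohb itself had 8.37, 20.3 and 7.10 CPM after siRNA, against 20.9, 7.78 and 12.3 CPM in controls. Per length it was at most 0.0177 of Magoh after siRNA and at most 0.0164 in controls. Of the exonic bases of Magohb 30.2% overlap the processed pseudogene Gm44958.

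The last 90 coding bases of Magoh and Magohb, stop codon included, are shown because the ratio rests on telling the transcripts apart. They come from GENCODE vM21, 5′ to 3′, with bases that differ between the genes in capitals.
Magoh: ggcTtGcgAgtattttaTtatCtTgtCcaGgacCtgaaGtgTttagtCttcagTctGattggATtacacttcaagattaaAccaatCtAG
Magohb: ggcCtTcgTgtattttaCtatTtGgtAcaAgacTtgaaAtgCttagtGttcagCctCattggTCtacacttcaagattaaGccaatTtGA
The window has 20 differing bases. Over 441 aligned coding bases there were 84 differences (81.0% identity), and the longest stretch common to both coding sequences was 17 bases. None of the 100-base stretches of Magoh occurred in another annotated gene (0%), and 24.1% of those of Magohb occurred in Gm44958.

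**Figure D3:**
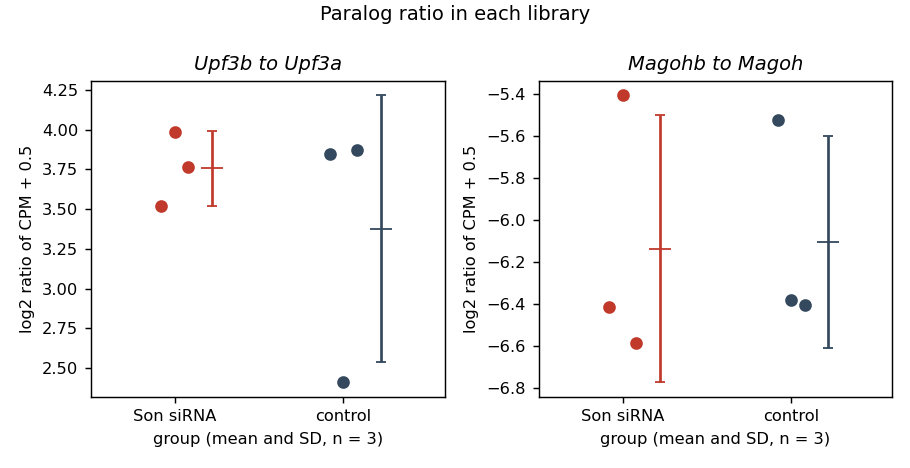
log2 ratio of CPM, with 0.5 CPM added to both genes, for Upf3b to Upf3a and for Magohb to Magoh, with a point per library, the Son siRNA group left of the control group, and bars for the mean and SD of each group. The groups overlap in both panels, and control 2 is the low point among the Upf3b to Upf3a ratios at 2.41.

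Beyond the 10 genes, no gene of the rest of the EJC and NMD machinery that was listed passed the edgeR threshold. A list of 33 partners (alternative EJC subunits, loading and disassembly factors, the other SMG proteins, release factors, cap and poly(A) binding proteins, decapping and exonuclease factors) had 31 tested genes, of which 0 were lower and 0 higher by edgeR over all genes. At an unadjusted p under 0.05 there were 2 lower and 2 higher, against 8.86% and 5.88% of all genes tested, and DESeq2 called 1 lower and 0 higher, against 6.25% and 2.74%. The median log2 fold change was -0.08, against 0.02 over all genes, and 18 of the 31 were below 0. Groups did not overlap for 4 genes with siRNA lower, against 11.6% of all genes, and for 2 with siRNA higher, against 12.1%, so these counts were near the background. Dhx34 and Dcp1b did not pass the filter on low counts.

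Ruvbl2, an AAA+ ATPase that with Ruvbl1 regulates SMG1 in human cells, had 7.44, 12.8 and 7.92 CPM after Son siRNA, against 32.5, 54.4 and 23.9 CPM in controls. All 3 siRNA libraries lay below the controls, and the log2 fold change was -1.98 (SE 0.39, edgeR adjusted p = 0.0564), past the threshold with DESeq2 (adjusted p = 2.08e-05). Of its exonic bases 15.4% overlap Gys1 and Lhb. Dcp2, the decapping enzyme, had 38.4, 30.2 and 29.7 CPM after siRNA, against 16.1, 23.8 and 21.7 CPM in controls (log2 fold change 0.67, edgeR adjusted p = 0.305). Gspt2, a release factor eRF3 gene, had 25.2, 24.4 and 22 CPM after siRNA, against 13.0, 10.7 and 19.7 CPM in controls (log2 fold change 0.72, edgeR adjusted p = 0.327). Both genes were higher in each siRNA library than in any control. Gspt1, the other eRF3 gene listed, averaged 298 CPM after siRNA and 314 CPM in controls (log2 fold change -0.08, edgeR adjusted p = 0.933). Ruvbl1 averaged 163 CPM after siRNA and 170 CPM in controls (log2 fold change -0.06, edgeR adjusted p = 0.940). The groups overlapped for Gspt1 and for Ruvbl1. The other partners named by the rule were the RNA helicase gene Mov10 (log2 fold change -1.02), the decapping scaffold gene Edc4 (-0.63), the 5′ to 3′ exonuclease gene Xrn1 (-0.34), the EJC-associated gene Acin1 (-0.60) and Nbas (-1.03), with edgeR adjusted p from 0.331 to 0.556.

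Among transcripts listed as NMD substrates, few genes passed the test. Of 30 listed genes, 29 were in the files and 27 were tested, and 1 fell and 1 rose by edgeR over all genes, against 0.899% and 0.0899% of all genes tested. At an unadjusted p under 0.05 there were 3 lower and 3 higher, against 8.86% and 5.88% of all genes. Groups did not overlap for 5 with siRNA lower, against 11.6% of all genes, and for 4 with siRNA higher, against 12.1%. DESeq2 called 2 lower (Srsf3 and Rpl3) and 2 higher (Gadd45g and Ptbp2), against 6.25% and 2.74%. The median log2 fold change was 0.01, against 0.02 over all genes, with 12 values below 0 and 15 above. Atf5 and Arc did not pass the filter on low counts. Gadd45g, a growth arrest gene, stands in the list with its relatives Gadd45a and Gadd45b, and these data do not show whether its own transcript is a substrate. It had 21.6, 18.2 and 20.8 CPM after Son siRNA, against 2.62, 2.34 and 3.71 CPM in controls. It rose by 2.80 on the log2 scale, with an SE of 0.335 (edgeR adjusted p = 0.0134). Srsf3, an SR splicing factor gene with a poison exon, had 155, 276 and 174 CPM after siRNA, against 711, 484 and 497 CPM in controls. It fell by 1.48 on the log2 scale with an SE of 0.28, just past the threshold (edgeR adjusted p = 0.0494), and 6.1% of its 100-base stretches also occur in 3 other annotated genes. With any 1 siRNA library left out, edgeR called 0 genes lower and 0 higher, so no gene could keep its call. The edgeR adjusted p was then 0.0709 to 0.171 for Gadd45g, at log2 fold changes of 2.76 to 2.87. For Srsf3 it was 0.0892 to 0.314. The Srsf3 call was also lost without control 1 or 3 (0.109 or 0.0741). It was lost as well with upper-quartile scaling (0.0544), total counts (0.0908) or no filter (0.0691).

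Among the other substrates, Ptbp2, which encodes a neuronal splicing repressor and whose transcript is held low by NMD outside neurons, had 28.9, 23.8 and 22.4 CPM after Son siRNA, against 12, 10.1 and 12 CPM in controls (log2 fold change 1.14, edgeR adjusted p = 0.0971, DESeq2 adjusted p = 0.00142). Tbl2 had 45.1, 29.8 and 41.9 CPM after siRNA, against 12.9, 25.3 and 25.8 CPM in controls (log2 fold change 0.87, edgeR adjusted p = 0.275). Both genes were higher in each siRNA library than in any control. The ribosomal protein gene Rpl3 had 16.0, 15.7 and 15.6 CPM after siRNA, against 53.7, 44.0 and 30.3 CPM in controls (log2 fold change -1.43, edgeR adjusted p = 0.0607, DESeq2 adjusted p = 7.47e-05). With edgeR it passed with at least 50 units in 3 libraries (0.0446) and with counts divided by 4 (0.0395), and 28.8% of its 100-base stretches also occur in 7 other annotated genes. Rps9, also a ribosomal protein gene, had 1105, 1284 and 1184 CPM after siRNA, against 1982, 1408 and 1546 CPM in controls (log2 fold change -0.47, edgeR adjusted p = 0.319). Both were lower in each siRNA library than in any control. The 4 snoRNA host genes tested, Gas5, Snhg12, Snhg15 and Zfas1, had log2 fold changes of -0.08, 0.05, 0.48 and 0.40, and the adjusted p was 0.482 or more for each (edgeR). Snhg15 was higher in each siRNA library than in any control, and the groups overlapped for Gas5, Snhg12 and Zfas1. Of the exonic bases of these genes, 9.79% to 19.6% overlap other genes. A gene-level count does not tell a decayed isoform from the productive one, so none of these values measures NMD activity.

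**Figure D4:**
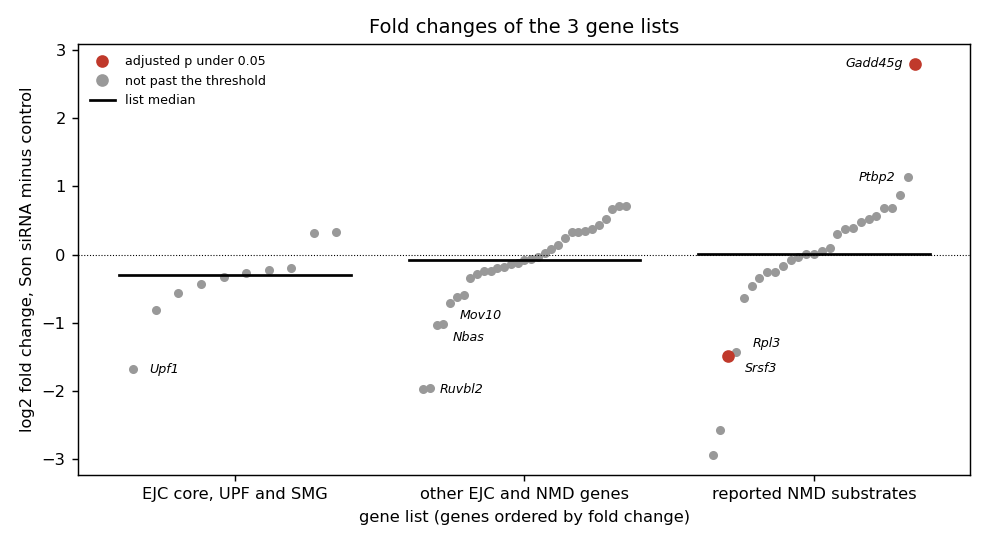
log2 fold change, Son siRNA minus control, of every tested gene of the 3 lists, ordered within each list, with red points past an adjusted p of 0.05 and black lines at the list medians of -0.30, -0.08 and 0.01. In the substrate list Gadd45g and Srsf3 are past the threshold, and in the other lists no gene is.

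Signs for the members nearest to 0 depended on scaling. With total counts in place of TMM the median of all genes moved up by 0.29, that of the 10 genes was -0.03, and Magoh and Smg1 then had log2 fold changes of 0.09 and 0.10. Relative to the median of all genes, Magoh was at -0.25 with TMM and -0.22 with total counts, and Smg1 at -0.22 and -0.21. Upf1 was at -1.71 relative to that median with TMM and -1.66 with total counts, Upf3a at -0.83 and -0.86, and Upf2 at -0.59 and -0.56. Over 15 alternatives the log2 fold change of Upf1 ranged from -2.06 without siRNA library 1 to -1.35 with total counts, with adjusted p from 0.00098 (DESeq2) to 0.381 (edgeR without siRNA library 3).

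**Figure D5:**
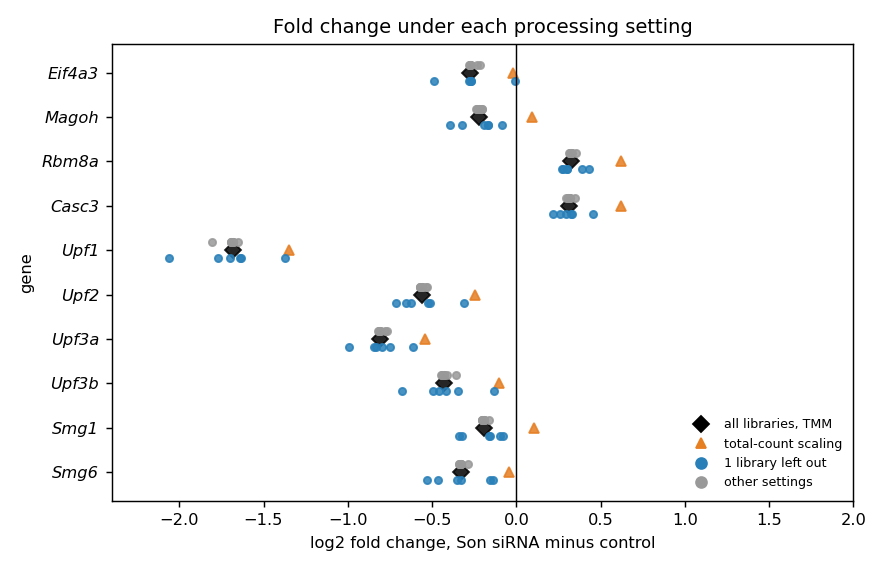
log2 fold change of each gene, Son siRNA minus control, with all libraries and TMM scaling (black diamonds), total-count scaling (orange triangles), 1 library left out (blue points) and the other settings (grey points). All settings put Upf1, Upf2, Upf3a and Upf3b below 0 and Rbm8a and Casc3 above 0, while total counts put Magoh and Smg1 above 0.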

How the data were processed

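RNA of 3 Son siRNA and 3 control libraries was made into cDNA with Smart-Seq2, per the labels' protocols. HISAT2 2.0.5, StringTie 1.3.3b and the GRCm38 build are named in the submitters' processing notes; the sources used here do not name the annotation release, filters or counting step. Per gene, the authors deposited whole-number estimated counts, not normalized, used here as deposited. Of values from 1 to 40, 26.4% to 32.4% were multiples of 4, against 25% for evenly spread values. That does not show what 1 read pair is worth, and 4 units were assumed. On that assumption 3 read pairs would be 0.0906 to 0.125 CPM. Reads amplified by PCR are not independent molecules, so such floors cover counting error only.

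Genes kept by filterByExpr were scaled with TMM and tested with edgeR 4.0.16 (R 4.3.3; glmQLFit, glmQLFTest, Son siRNA minus control, no block), with Benjamini-Hochberg adjustment over all genes and a threshold of 0.05. SEs were computed back from the fold change and F statistic of that test, and the 95% intervals from those SEs, so both restate its unadjusted p-value. Alternatives were DESeq2 1.42.0, other scalings and filters, counts divided by 4, no mitochondrially encoded genes, a replicate block and leaving out each library; leaving out libraries with DESeq2 was added after the data were seen. Paralog ratios used an exact permutation test. GENCODE vM21 (GRCm38) gave coordinates, lengths, overlaps and 100-base stretches shared with other genes, and matched 45223 of 46072 genes. Pym1, Rbm8a2, Snhg15 and Zfas1 were matched by Ensembl identifier and Snhg1 was not matched.

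Members and lists were chosen with earlier results of these data known. Named genes were the members, Son, Magohb, and the 8 partners and 6 substrates with the smallest unadjusted p. On simulated counts for Son siRNA against control (16735 genes tested), the test recovered 78 of the 100 genes with a 4-fold change and 97 of the 100 with an 8-fold change, with 8 false calls among 183. The changed genes were drawn only from those above a minimum CPM, and variation shared between genes was not simulated. Smaller changes, such as those fitted for the members, were not tried.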

Additional observations from a re-analysis of the deposited data

How the results depend on the processing

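The edgeR test called 0 members, as it did under each of its alternatives with all libraries or 1 left out, with 1 to 3 members at an unadjusted p under 0.05, and DESeq2 called 1 lower (Upf1) and 0 higher. With DESeq2 and 1 library left out, 1 to 2 members were lower: Upf1 each time, Upf3b without control 2 and Upf3a without control 3. Those were the fits with the most calls, with 1293 genes lower and 1205 higher without control 2 and 954 and 821 without control 3, of a range of 491 to 1293 lower and 97 to 1205 higher. Against 160 genes lower and 16 higher, total counts gave 35 and 7, no filter 91 and 9, at least 50 units in 3 libraries 245 and 43, counts divided by 4 279 and 51, and DESeq2 850 and 373. Leaving out 1 library gave 0 to 231 lower and 0 to 84 higher, with 0 for each siRNA library (1733 to 2348 at an unadjusted p under 0.05). Among partners, 1 was lower (Ruvbl2) with at least 50 units, counts divided by 4 and DESeq2. Among substrates, 0 were lower with upper-quartile scaling, total counts or no filter, 2 with at least 50 units, counts divided by 4 or DESeq2 (Srsf3 and Rpl3; it called 2 higher, Gadd45g and Ptbp2), and 0 to 1 lower and 0 to 1 higher with 1 library left out.

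Signs reversed with total counts for Magoh (0.093), Smg1 (0.10) and Magohb (0.095). For Magohb, leaving out 1 library gave -0.83 to 0.25, above 0 without siRNA library 1 (0.0039) or 3 (0.070) or control 1. The Upf3b to Upf3a ratio difference was -0.11 to 0.63 with 1 library left out. The Magohb to Magoh ratio difference was 0.038 with 5 CPM added and -0.40 to 0.26 with 1 library left out (0.11 and 0.19 without siRNA library 1 or 3). Total counts shift all genes; for the others the cause was not tested. Of 150 member values over 15 alternatives, 147 kept their sign and side of the threshold, and the exceptions were Magoh and Smg1 with total counts and Upf1 with DESeq2.

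The replicate numbers were not shown to pair the libraries: deviations of same-numbered libraries from their group means correlated at -0.27, -0.33 and 0.023. With the replicate block edgeR called 0 genes lower and 0 higher (1997 at an unadjusted p under 0.05), hence 0 substrates in either direction and 0 members.

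Depth allowed every member to be counted in every library, at 4.28 CPM or more. A pseudocount for FPKM or TPM was not run, since the files hold counts.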

Other observations

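Genes were also counted by their annotated isoforms, a description added with the results known and given without a test. GENCODE vM21 lists a transcript of the NMD biotype for 20.9% of protein-coding genes in the files, and for 2 of the 10 members, Smg1 and Smg6, each with 1 such transcript. Of 3735 tested protein-coding genes with an NMD transcript, 35 (0.937%) fell and 7 (0.187%) rose past edgeR's threshold, with a median log2 fold change of 0.006. Of 10278 tested protein-coding genes without one, 108 (1.05%) fell and 8 (0.0778%) rose, with a median of 0.04. These are gene-level counts, so a shift between isoforms of a gene was not measured. The median control level was 8.07 CPM for genes with an NMD transcript and 4.23 CPM for those without. The shares of the 2 classes are therefore not from genes at a like level.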
